A study of Mus musculus with 6 samples.

Results

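Differentiating brown preadipocytes were described here through 100 genes that were highest at D3 in untreated and in FGF8-pretreated cells alike. By the paper's account, D3 is 1 day into differentiation medium. The genes were chosen by their measured values. Counts were normalized with size factors by the median-of-ratios method, which scales libraries of different depth to each other, and 13256 of the 26264 listed symbols averaged 20 or more normalized counts across the libraries. For each of these the log2 ratios of D3 over D0 and of D3 over D7 were taken in both treatments, and the 100 genes with the highest smallest ratio, 0.754% of the genes ranked, form the set. Rank 100 was Tsc22d3 with a smallest log2 ratio of 1.01, after Ccdc183 at 1.01 and Vdr at 1.01. Just outside were Pcdh1 at 1.00, Gpm6b at 1.00 and Rasl11b at 0.99, so the limit fell at about 2-fold and in all 102 genes had the 4 ratios at or above it. Since the rule used the differences between days, those differences are a description and carry no test.

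The cells were an immortalized line of brown preadipocytes from the stromal vascular fraction of interscapular brown fat of Bl6N wild-type mice, made with SV40 large T antigen. They received 5.5 nM FGF8, a fibroblast growth factor, for 48 h, or were left untreated (nc; the series' design names a vehicle), and were harvested directly (D0) or after differentiation. Per the paper, days count from the end of FGF8 treatment, and D3 followed 2 days of induction medium and 1 day of differentiation medium. The D7 label was taken as the paper's day 9, after 2 days of induction and 7 days of differentiation medium. The series' design instead calls D3 day 3 of differentiation, and the paper's culture methods give another length of differentiation, so the timing is not settled. Induction medium held insulin, T3 (a thyroid hormone), IBMX (which blocks the breakdown of cyclic AMP), dexamethasone (a glucocorticoid), indomethacin and rosiglitazone (which activates PPARG). Differentiation medium held only insulin, T3 and rosiglitazone. By the paper's timing, the D3 cells had thus been without dexamethasone, IBMX and indomethacin for 1 day. All groups carry the large T antigen, and whether cultures were pooled is not given in the sources used here. The growth protocol entered with the samples describes primary white cells, whereas titles, cell type and design name immortalized brown ones.

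Each of the 6 combinations of treatment and day is 1 library, so there are no replicates, and a difference between 2 libraries has a counting error only. Libraries held between 16403254 and 38551551 counts. As a check of the labels, summed normalized counts of 20 mature adipocyte genes were 27557 at D0, 530086 at D3 and 1181960 at D7 in untreated cells, and 21709, 1093980 and 1197360 after FGF8. Progenitor genes went the other way, from 188121 at D0 to 49558 at D7 in untreated cells and from 85758 to 17587 after FGF8. Of the markers of other cell types, the 17 macrophage genes summed to between 193 and 344 in every library, with Adgre1 and all C1q genes at 0, and the 14 skeletal muscle genes to between 85.8 and 175. The 13 endothelial genes summed to 1952 in untreated D0 cells and to between 219 and 545 in the other 5 libraries, and Robo4 was at 0. The 14 chondrocyte and osteoblast genes summed to 179018 in FGF8 D0 cells, of which Spp1 (osteopontin) gave 176491, and to between 1894 and 4343 in the others. The 9 epithelial genes summed to 156 in FGF8 D0 cells and to at most 24.2 elsewhere, and the 12 Schwann cell and neuron genes to between 360 and 947. No member of the set is in any of these lists. The 14 smooth muscle and pericyte genes, which include the members Myh11 and Lmod1, summed to between 2444 and 10520. The part of these genes in the results was not tested. In bulk RNA, fewer cells of a state and less RNA per cell cannot be told apart.

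Adipogenesis is driven by a relay of transcription factors. Glucocorticoid and cyclic AMP signals in induction media raise the early C/EBP factors, which pass on to PPARG and CEBPA, and these keep the mature programme of lipid storage and, in brown fat, heat production running. Genes that are high only in between are known to include direct targets of the inducers and proteins of the matrix and cell surface that are remodelled while fibroblast-like cells round up.

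In the untreated cells the 100 genes had a median log2 ratio of 2.95 for D3 over D0 and of 1.61 for D3 over D7. After FGF8 the medians were 3.28 and 1.85, while over all 13256 genes the 4 medians lay between -0.01 and 0.04. The drop towards D7 was the tighter of the limits for most genes. It set the smallest ratio in 59 genes in untreated and in 22 in FGF8-pretreated cells, and the ratio to D0 did so in 13 and 6. The decline after D3 was also incomplete. At D7, 63 genes in untreated cells and 60 after FGF8 were still at least 2-fold above D0, 34 and 35 were within 2-fold of it, and 3 and 5 were at least 2-fold below. Median normalized counts were 29.4, 350 and 105 at D0, D3 and D7 in untreated cells and 17.9, 283 and 59.3 after FGF8. At D0, 10 genes had no count in the untreated library and 15 none in the FGF8 library, of which 9 had none in either. In 77 genes both D3 libraries stood above the other 4 libraries. In the other 23, such as Vdr and Igfbp5, the FGF8 library at D3 was below at least 1 untreated library of another day.

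**Figure D1:**
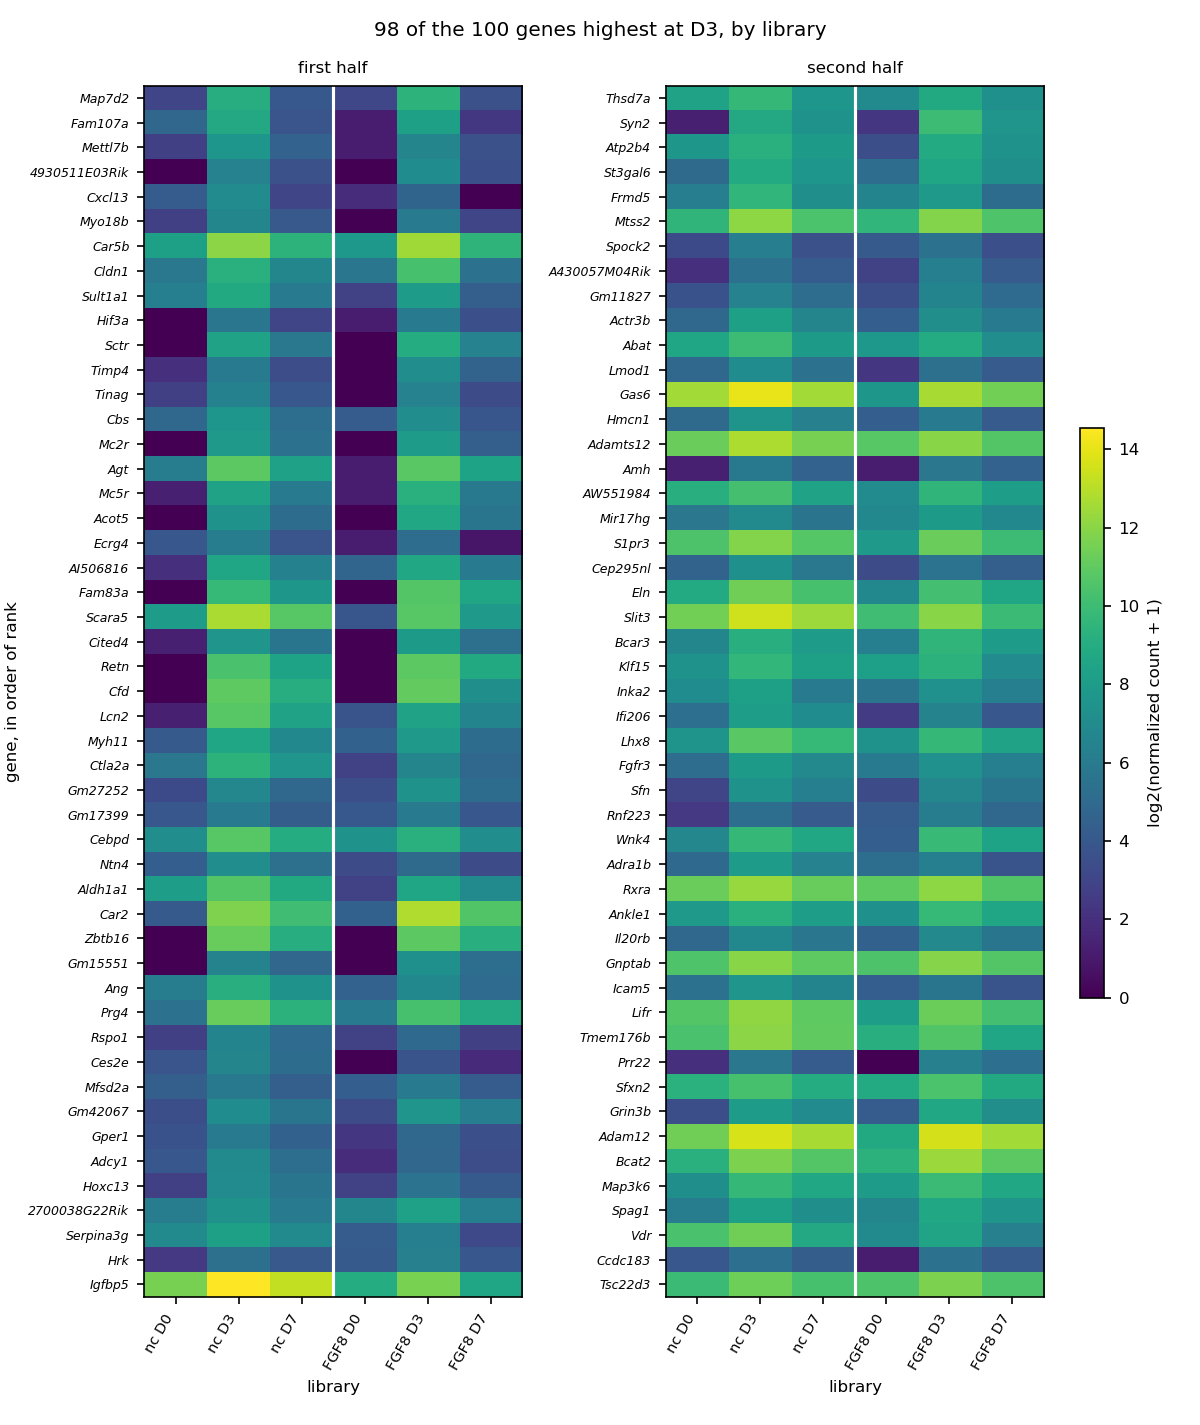
Level of 98 of the 100 genes in each of the 6 libraries, in order of rank. Colour is log2(normalized count + 1), columns are libraries (nc is untreated), and the white line separates the treatments. The D3 column is the brightest of its 3 in every row by construction, and 9 rows are at 0 in both D0 libraries.

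The gene with the clearest peak was Map7d2, a microtubule-associated protein. It had 7.34 normalized counts at D0, 531 at D3 and 14.9 at D7 in untreated cells, and 7.68, 682 and 11.4 after FGF8. The 2 treatments lay close to each other on each day and D7 was nearly back at D0. Fam107a, an actin-associated protein raised by stress and glucocorticoids, came next with 26.4, 440 and 13.5 in untreated cells and 1.28, 310 and 4.06 after FGF8, which put its D7 level below D0 in untreated cells. Mettl7b, a methyltransferase of the lipid droplet and endoplasmic reticulum, had 5.88, 202 and 22.7 and then 1.28, 98.3 and 11.4. The long noncoding RNA 4930511E03Rik was at 0 counts in both D0 libraries, at 87.8 and 132 at D3 in untreated and FGF8-pretreated cells, and at 11.4 and 10.6 at D7. Over all members the median log2 ratio of D7 over D0 was 1.31 in untreated cells and 1.32 after FGF8. The medians of D3 over D7 were larger, at 1.61 and 1.85. The 2-fold limit towards D7 was passed narrowly by abundant genes such as Adam12, a protease of the myoblast and adipocyte progenitor surface, which had 2676, 12843 and 6307 in untreated cells.

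The hormone side of the set was led by receptors coupled to cyclic AMP. Mc2r, the receptor for corticotropin, had no count in either D0 library, 228 and 256 normalized counts at D3 in untreated and FGF8-pretreated cells, and 42.6 and 20.3 at D7. Mc5r, a second melanocortin receptor whose gene lies 64453 bases away, had 1.47, 331 and 64.6 in untreated cells and 1.28, 599 and 58.5 after FGF8. Sctr, the receptor for the gut hormone secretin, which acts on brown fat, was at 0 in both D0 libraries, at 330 and 519 at D3 and at 56.8 and 86.2 at D7. All 3 receptor genes thus went from at most 1 count at D0 to between 228 and 599 normalized counts at D3, and D7 held between 7.95% and 19.5% of the D3 level. Of the remaining receptors, Lifr, the receptor of leukaemia inhibitory factor, and S1pr3, a receptor of sphingosine 1-phosphate, were already at 1629 and 1413 in untreated D0 cells and peaked at 4554 and 3747.

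Among transcriptional regulators, Zbtb16 (PLZF, a zinc finger repressor known as a glucocorticoid target) had no count at D0 in either treatment, 2297 and 1894 normalized counts at D3 and 542 and 587 at D7. Against the limit of 3 counts that a count of 0 allows in a library, D3 was at least 521-fold higher than D0 in untreated cells and at least 493-fold higher after FGF8. Cebpd, the early C/EBP factor that glucocorticoids raise, had 138, 1769 and 522 in untreated cells and 170, 606 and 142 after FGF8. Its D0 levels were close in the 2 treatments, and its FGF8 levels were the lower ones at D3 and D7. Klf15, a glucocorticoid-responsive factor of amino acid and lipid metabolism, had 179, 795 and 313 and then 298, 642 and 128. Hif3a, a hypoxia-inducible factor subunit, was lower throughout, at 52.2 and 65.3 at D3 and at most 10.6 at the other days. Rxra, the partner of PPARG on DNA, and Tsc22d3 (GILZ, a glucocorticoid-induced leucine zipper protein) were abundant on all days and peaked at 5016 and 2618 in untreated cells.

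Glucocorticoid-responsive genes held the largest share of the 35 gene lists that were compared with the set. Of 25 such genes at a mean of at least 20, 9 were members (Fam107a, Sult1a1, Hif3a, Timp4, Lcn2, Cebpd, Zbtb16, Klf15 and Tsc22d3), which is 36% of the list and 9% of the set. Of all genes ranked, 0.754% were members. All 4 ratios were above 0 in 13 of the 25, against 15.6% of all genes. The list was written with earlier results of these data known, so the count is a description. Median log2 ratios of the list, which include the 9 members chosen by them, were 1.85 in untreated and 2.07 in FGF8-pretreated cells for D3 over D0, and 0.98 and 1.07 for D3 over D7. The summed normalized counts of all 26 listed genes were nevertheless higher at D7 than at D3, with 96097 against 75261 in untreated cells and 97162 against 76190 after FGF8. Members of the list were not of 1 shape. Fkbp5, a chaperone of the glucocorticoid receptor outside the set at rank 3035, had 2258, 4522 and 963 normalized counts in untreated cells but 4140, 3743 and 914 after FGF8, where D3 was not the highest day. Sult1a1, a sulfotransferase of hormones and phenols, had 77.8, 452 and 66.0 and then 6.40, 252 and 20.3.

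**Figure D2:**
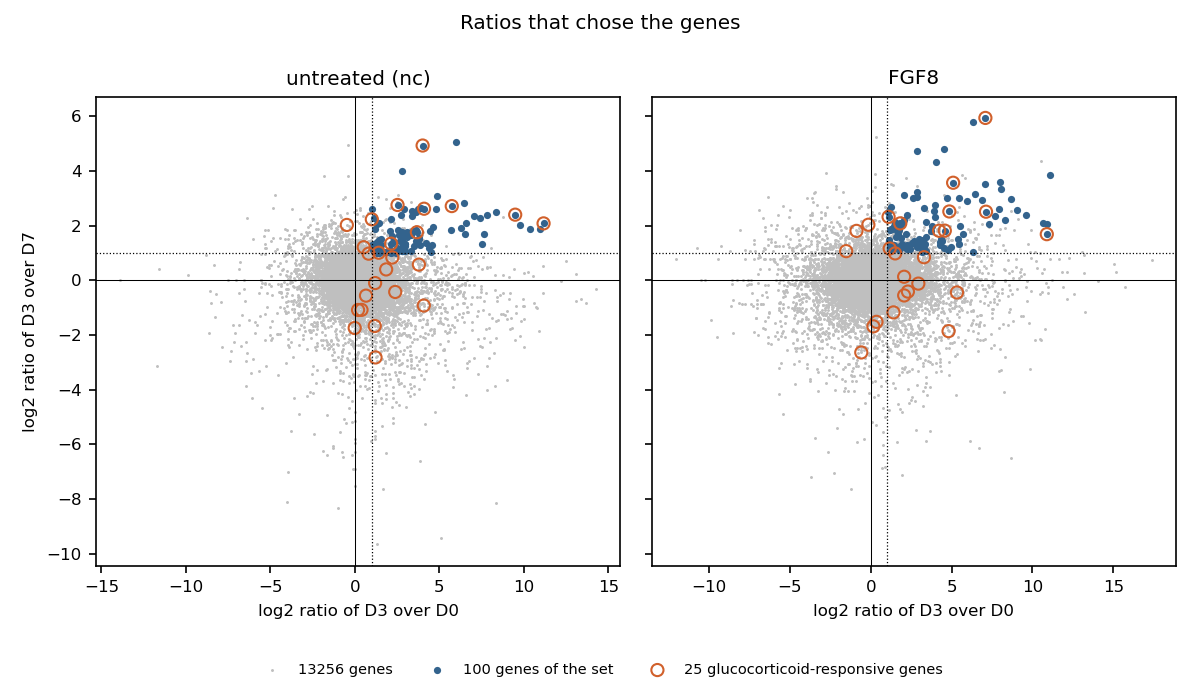
Log2 ratio of D3 over D0 against that of D3 over D7 in untreated (left) and FGF8-pretreated cells (right) for 13256 genes (grey), the 100 genes of the set (blue) and 25 glucocorticoid-responsive genes (orange circles); solid lines mark 0 and dotted lines 2-fold. The blue points fill the upper right corner because these ratios chose them, and 9 circles hold a blue point.

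Other lists met the set in few genes. Of 21 cyclic AMP-responsive genes none was a member and 2 had all 4 ratios above 0, and none of the 20 PPARG and rosiglitazone target genes was a member. Mature adipocyte genes gave Retn and Cfd, the terminal adipogenic factors Klf15 and Rxra, the thermogenic genes Lhx8, the complement and acute phase genes Cfd, Lcn2 and Serpina3g, and the smooth muscle and pericyte markers Myh11 and Lmod1. S-phase and G2/M genes gave no member in 20 genes each. Of all genes ranked 0.754% are members, so a count of 0 in a list of this size tells little. Members made up 20% of the 10 terminal adipogenic factors and of the 15 complement and acute phase genes. They made up 18.2% of the 11 smooth muscle and pericyte markers, 10% of the mature adipocyte genes and 5.56% of the thermogenic genes. In all, 15 of the 35 lists held at least 1 member, and 75 of the 100 genes were in no list.

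Among secreted proteins, the adipokine resistin (Retn) and the serine protease adipsin (Cfd) are also listed as mature adipocyte genes. Of the 20 mature adipocyte genes, 5 had all 4 ratios above 0, against 15.6% of all genes. The list had a median log2 ratio of D3 over D7 of -0.54 in untreated and 0.26 in FGF8-pretreated cells. Retn and Cfd lie above these medians by the rule that chose them. Retn had 0 counts at D0, 1317 and 1896 normalized counts at D3 and 353 and 450 at D7. Cfd had 0 counts at D0, 1984 and 2163 at D3 and 533 and 150 at D7. It is also in the complement and acute phase list, whose 15 genes had median log2 ratios of D3 over D7 of 0.43 and 1.33. Both genes were at least 299-fold higher at D3 than at D0 in each treatment, by the limit of 3 counts. Lcn2 (lipocalin 2, an iron-siderophore binding acute phase protein) had 1.47, 1770 and 334 in untreated cells and 12.8, 329 and 92.7 after FGF8. Agt (angiotensinogen, the precursor of angiotensin) had 67.6, 1917 and 314 and then 1.28, 1795 and 341, so that its treatments differed at D0 and met at D3. Igfbp5, a binding protein of insulin-like growth factors, had the highest mean count of the members over the 2 D3 libraries and the highest count in untreated D3 cells, but not in FGF8-pretreated ones, where Adam12 had 12643. Igfbp5 had 3027, 24040 and 9608 in untreated cells and 513, 3191 and 398 after FGF8. Per 1000 exonic bases its level at D3 was 4003 in untreated and 531 in FGF8-pretreated cells, while the short gene Cfd stood at 2058 and 2244.

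**Figure D3:**
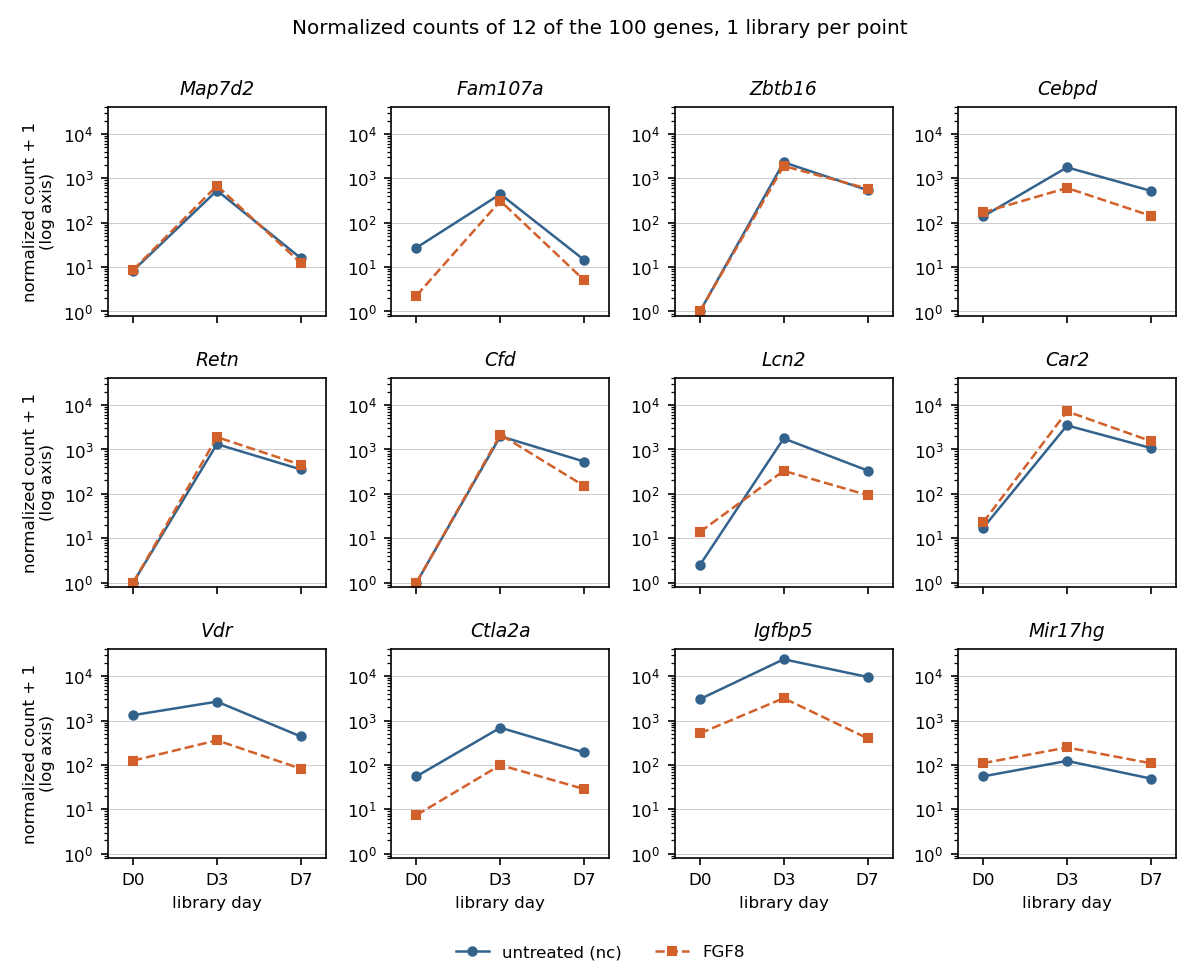
Normalized count + 1 of 12 of the 100 genes on a log axis, by day, in untreated (circles, solid lines) and FGF8-pretreated cells (squares, dashed lines); each point is 1 library and there are no error bars. The peak at D3 is shared, while the FGF8 curves of Vdr, Ctla2a and Igfbp5 lie below and those of Mir17hg above the untreated curves on all days.

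The comparison that the rule did not use is FGF8 against untreated cells on the same day, in the same 6 libraries. Most members were within 2-fold of untreated cells, 54 at D0, 61 at D3 and 60 at D7. The share at least 2-fold lower after FGF8 was above that of all genes on each day. At D0, 40 of the 100 were at least 2-fold lower, against 11.4% of all 13256 genes, and 6 were at least 2-fold higher, against 7.61%. At D3, 32 were lower, against 12.9%, and 7 were higher, against 4.11%. At D7, 37 were lower, against 9.75%, and 3 were higher, against 1.09%. Median log2 differences of FGF8 to untreated were -0.32, -0.31 and -0.52 at D0, D3 and D7, against 0.04, 0.07 and 0.07 over all genes. Low counts weigh on the D0 values. Among the 52 members that averaged 20 or more normalized counts in the D0 pair, 24 were lower (46.2%, against 10.4% of all genes so filtered) and none was higher, against 6.75%. The same filter at D7 kept 80 members, of which 32 were lower (40%, against 8.62%) and 2 higher (2.5%, against 1.02%).

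On all 3 days 20 members were at least 2-fold lower, against 502 genes or 3.79% of all, and none was at least 2-fold higher on all days, against 24 genes or 0.181%. Among the 20 were Cxcl13, Scara5, Ctla2a, Ntn4, Aldh1a1, Ang, Ces2e, Adcy1, Serpina3g, Igfbp5, Lmod1, Gas6, Cep295nl, Eln, Slit3, Ifi206, Icam5, Tmem176b and Vdr. By role, 10 of the 13 secreted proteins were lower at D7, with a median log2 difference of -2.06, and 8 of them at D0 and at D3. Over all genes the shares were 9.75% at D7, 11.4% at D0 and 12.9% at D3. Such falls were not particular to the set. At D7, 14 of 15 complement and acute phase genes, 17 of 20 chemokine and cytokine genes and 15 of 17 progenitor genes were lower. None of these was at least 2-fold higher. Of the 20 mature adipocyte genes, 2 were lower. Matrix, protease and adhesion proteins had medians of -1.11, -0.82 and -0.61 at D0, D3 and D7 over 11 genes, and cytoskeletal proteins -1.58, -0.73 and -1.13 over 8 genes. Long noncoding RNAs went the other way at D3, with a median of 0.64 over 10 genes and none at least 2-fold lower on any day. Kinases and signalling adaptors had medians of 0, 0.07 and -0.01. The roles were assigned by hand once the members were known, and their medians carry no test.

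**Figure D4:**
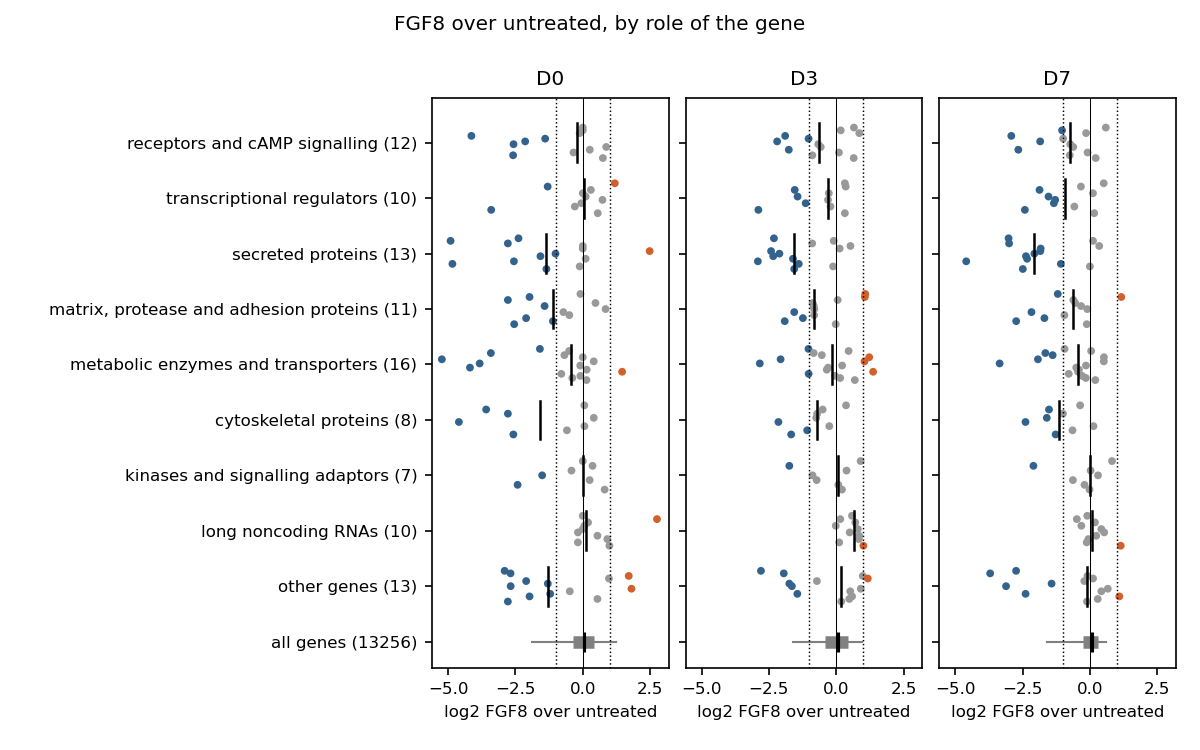
Log2 difference of FGF8 to untreated at D0, D3 and D7 for the 100 genes by role, with the number of genes in brackets; points are genes (blue at least 2-fold lower, orange at least 2-fold higher, grey between), black bars are medians, and the bottom row shows the median, quartiles and 5th to 95th percentile of all 13256 genes. Secreted proteins have medians of -1.35, -1.56 and -2.06, the lowest of the groups at D3 and D7, and long noncoding RNAs lie around or above 0.

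A treatment term common to D0, D3 and D7 was fitted with the quasi-likelihood method of edgeR to all 14569 genes that passed its filter, with day as a block, so that the 3 days stand in for replicates and 2 residual degrees of freedom remain. All 100 members were tested. At an adjusted p under 0.05, 4 were lower after FGF8 (1.25% of all genes tested were) and none was higher (0.0206% were). At an unadjusted p under 0.05, 36 members were lower and 4 higher (Fam83a, Car2, Mir17hg and Rnf223), against 12.9% and 10.3% of all genes. DESeq2's Wald test called 25 lower, against 8.85% of all genes, and 3 higher, a share close to the 3.42% of all genes. Which members pass depends on the fit. Without the D0 libraries 35 were called lower, against 11.6% of all genes, and without those of D3 or D7, or without day in the model, none was, which left 25, 27 and 4 at an unadjusted p under 0.05.

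The 4 called genes belong to different functions. Vdr, the vitamin D receptor, fell with a log2 difference of -2.93 ± 0.24 (SE, derived from the test statistic) and an edgeR adjusted p of 0.0429. It had 1322, 2669 and 437 normalized counts at D0, D3 and D7 in untreated cells and 124, 358 and 81.3 after FGF8, so that the highest FGF8 library was below the lowest untreated one. Ctla2a, a cysteine protease inhibitor, fell by 2.87 ± 0.25 (edgeR adjusted p 0.0429), from 54.3, 690 and 190 to 6.40, 98.3 and 27.6. The reduction of Ctla2a was nearly the same on each day, with log2 differences of -2.90, -2.80 and -2.74. Eln, elastin, the core of elastic fibres, fell by 1.68 ± 0.20 (edgeR adjusted p 0.0464), from 472, 2745 and 1259 to 109, 1161 and 390. Ang, the ribonuclease angiogenin, fell by 2.18 ± 0.29 (edgeR adjusted p 0.0499), from 70.5, 556 and 177 to 23.0, 109 and 33.3. Ang shares 1387 exonic bases on the same strand with Rnase4, whose own counts went from 5933, 12085 and 4670 to 2452, 2578 and 608, so reads of the 2 genes may not be told apart. With TMM replaced by DESeq2's size factor method inside edgeR, Ang and Eln had adjusted p of 0.0548 and 0.0547 and were not called. Over the 7 alternative fits the adjusted p of these 4 genes lay between 6.17e-22 (Vdr, DESeq2) and 0.9998 (all 4, without day in the model). All 4 were lower on 3 of 3 days.

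Other members missed the threshold by little. Igfbp5 had log2 differences of -2.56, -2.91 and -4.59 at D0, D3 and D7 and an edgeR estimate of -3.36 ± 0.45 (edgeR adjusted p 0.0527). At D3 its counting interval ran from -2.96 to -2.87, so counting error is small beside the difference. Slit3, a secreted guidance ligand, had -1.35, -1.56 and -2.49 (edgeR adjusted p 0.0561), from 2819, 11808 and 5461 to 1105, 3994 and 972. Scara5, a ferritin receptor known as a promoter of adipogenic commitment, had 264, 6639 and 1732 in untreated cells and 14.1, 1779 and 228 after FGF8 (edgeR adjusted p 0.0611). All 3 were lower on each of the 3 days. Their adjusted p also depended on the fit, from 5.87e-14 (Igfbp5, DESeq2's Wald test) to 0.9998 (all 3, edgeR without day in the model).

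**Figure D5:**
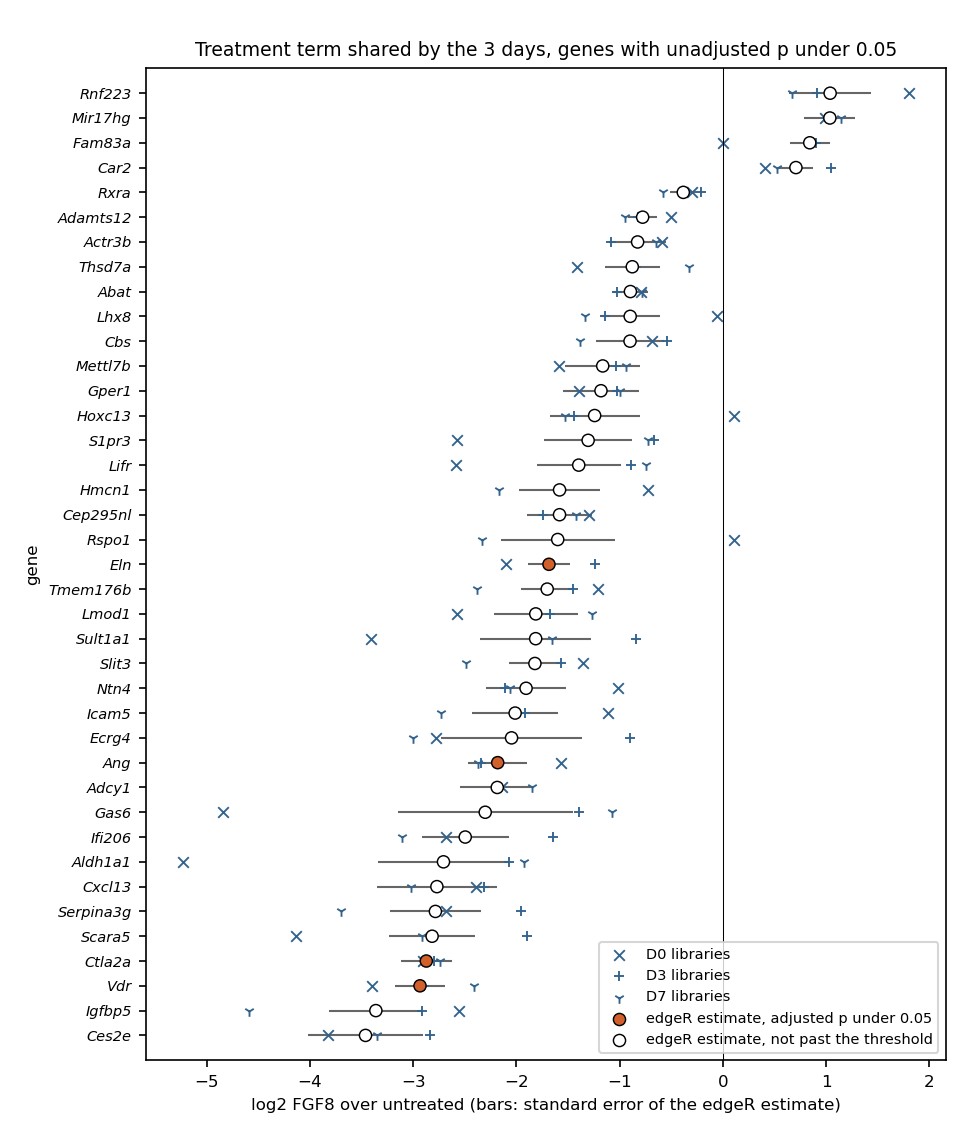
Log2 difference of FGF8 to untreated for 39 of the 40 members with an unadjusted p under 0.05 in edgeR. Circles are estimates over the 3 days (filled where the adjusted p is under 0.05), with standard errors derived from the test statistic. Crosses, plus signs and tri-markers are the D0, D3 and D7 pairs of libraries. Of the 39, 35 lie below 0 and 4 above, and the 4 filled circles are Vdr, Ctla2a, Ang and Eln.

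The size of the difference was not the same on each day in other members. Gas6, a ligand of the TAM receptor kinases and a progenitor gene, had 5903, 17089 and 5963 in untreated cells and 205, 6501 and 2825 after FGF8, with log2 differences of -4.84, -1.39 and -1.08. Adam12 had 457 at D0 after FGF8, a log2 difference of -2.55 with a counting interval from -2.72 to -2.39, but 12643 at D3 and 5828 at D7, log2 differences of -0.02 and -0.11. Aldh1a1, which makes retinoic acid, had 278, 1618 and 451 and then 6.40, 385 and 118. Atp2b4, a plasma membrane calcium pump, had 204 and 10.2 at D0 and 592 and 479 at D3. By contrast Cebpd differed by 0.30 at D0, with a counting interval from -0.09 to 0.70, by -1.54 at D3 and by -1.87 at D7. Adra1b, the alpha-1B adrenergic receptor, went from 0.26 at D0 to -1.77 and -2.66, and Lhx8, a LIM homeobox factor of brown fat, from -0.05 to -1.14 and -1.34. No test of a difference between days is possible with 1 library per condition.

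The 7 members at least 2-fold higher after FGF8 at D3 included enzymes. Acot5, a peroxisomal acyl-CoA thioesterase, had 172 and 402 normalized counts in untreated and FGF8-pretreated D3 cells, a log2 difference of 1.22 with a counting interval from 0.95 to 1.51. Car2, a carbonic anhydrase, had 3478 and 7188. Car2 was higher after FGF8 on all 3 days by 0.41, 1.05 and 0.52, with an edgeR estimate of 0.71 ± 0.17 and an edgeR adjusted p of 0.117. Cldn1, a tight junction protein, had 598 and 1261. Timp4, an inhibitor of metalloproteinases, had 66.2 and 139 and lies inside Syn2 (synapsin 2) on the other strand, where the 2 genes share 1142 exonic bases. Syn2 had 445 and 1003, and as the strand setting of the counting is not given in the sources used here, the reads of this pair may not be told apart.

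Mir17hg, the host transcript of the miR-17-92 cluster, stood about 2-fold higher after FGF8 on each day. Counts were 37, 96 and 68 in untreated cells and 85, 351 and 133 after FGF8 (normalized 54.3, 122 and 48.3, and 109, 246 and 108). Log2 differences were 0.99, 1.01 and 1.15 at D0, D3 and D7, and all counting intervals lay above 0. The edgeR estimate was 1.04 ± 0.25 with an edgeR adjusted p of 0.118. The gene lies on chromosome 14 of GRCm39 from 115278211 to 115284162 on the plus strand, and all 6 hairpins of the cluster were found inside it between 115281103 and 115281938. The libraries were made from mRNA and do not measure mature miRNAs. Separate entries of the 6 hairpin genes had 0 counts in all libraries except Mir20a with 1 count in untreated D7 cells. The hairpins share exonic bases on the same strand with Mir17hg. Reads of hairpin and host may thus not be told apart, and the counts of these entries do not measure the hairpins. The mature sequences below (RefSeq) show what the transcript encodes, with the seed, bases 2 to 8, in capitals. miR-17-5p and miR-20a-5p share 1 seed, from which that of miR-18a-5p differs, miR-19a-3p and miR-19b-3p share another, and miR-92a-3p has its own.
mmu-miR-17-5p: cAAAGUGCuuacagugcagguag
mmu-miR-20a-5p: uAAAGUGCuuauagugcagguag
mmu-miR-18a-5p: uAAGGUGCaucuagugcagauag
mmu-miR-19a-3p: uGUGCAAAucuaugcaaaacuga
mmu-miR-19b-3p: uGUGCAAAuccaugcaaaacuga
mmu-miR-92a-3p: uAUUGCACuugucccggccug

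In the annotation (GENCODE M39, GRCm39), 99 of the 100 symbols were found, all but Mettl7b. Of these, 89 are protein coding (89.9%, against 95.2% of all genes ranked and matched) and 10 are long noncoding RNAs (10.1%, against 3.98%). Exons covered a median of 5149 bases, against 6303. Members lay on 20 chromosomes. Within 500000 bases of each other were Prg4 and Hmcn1, Cfd and Grin3b, Mc5r and Mc2r, Map3k6 and Sfn, AI506816 and 2700038G22Rik, and the overlapping Syn2 and Timp4. Cfd and Grin3b lie 78052 bases apart, and Prg4, a lubricating proteoglycan, and Hmcn1, a basement membrane fibulin, 96265 bases apart. Some members overlap abundant genes: Cep295nl shares 332 exonic bases on the same strand with Timp2, which had 33602 normalized counts in untreated D0 cells against 23.5 for Cep295nl.

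RefSeq promoters, 250 bases before to 50 after the start site (taken from GRCm38.p6), were at hand for 77 members and for 10503 of the genes ranked. Short motifs were counted on both strands. The half-site of the glucocorticoid receptor, TGTTCT, was in 8 of the 77 (10.4%, against 12.1% of all promoters), and the full palindrome of 2 half-sites 3 bases apart was in none of the 77 and none of the 10503. The cyclic AMP response element TGACGTCA was in none (3.31% of all) and its half-site TGACG, which lies inside the full element, in 12 (15.6%, against 31.8%). The nuclear receptor half-site AGGTCA was in 10 (13%, against 12%) and the C/EBP half-site TTGCGC in 8 (10.4%, against 11.5%). The TATA box TATAAA was in 9 (11.7%, against 6.97%), the GC box GGGCGG in 38 (49.4%, against 64.9%) and the CCAAT box CCAAT in 23 (29.9%, against 39.4%). Median GC content was 56.7%, against 61%. The part of GC content in these shares was not tested, and a match of letters is a description of the window.

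The 250 bases before the start site are shown for 3 members. Capitals mark the matches to TGTTCT and TATAAA, and matches to the other motifs are left in lower case. The 3 are the glucocorticoid-responsive Sult1a1 with its 2 half-sites (the later one on the other strand, so that it reads AGAACA here), Ctla2a, which fell after FGF8, with a half-site and a TATA box that starts 190 bases before the start site, and Cxcl13, a B-cell chemokine lower after FGF8 on all days, with a TATA box that starts 46 bases before it. In GRCm39 they are chr7:126275591-126275840 on the minus strand, chr13:61084440-61084689 on the minus strand and chr5:96104548-96104797 on the plus strand, each 5′ to 3′ along its gene.
Sult1a1: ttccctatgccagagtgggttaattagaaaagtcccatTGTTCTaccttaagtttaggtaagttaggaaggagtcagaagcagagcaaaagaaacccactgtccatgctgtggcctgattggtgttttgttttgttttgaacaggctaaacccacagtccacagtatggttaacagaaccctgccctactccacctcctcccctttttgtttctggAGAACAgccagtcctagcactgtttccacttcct
Ctla2a: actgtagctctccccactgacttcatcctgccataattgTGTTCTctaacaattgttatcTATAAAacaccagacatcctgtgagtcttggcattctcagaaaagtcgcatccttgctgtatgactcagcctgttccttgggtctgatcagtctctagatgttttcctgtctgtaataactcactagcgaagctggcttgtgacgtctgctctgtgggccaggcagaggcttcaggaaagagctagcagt
Cxcl13: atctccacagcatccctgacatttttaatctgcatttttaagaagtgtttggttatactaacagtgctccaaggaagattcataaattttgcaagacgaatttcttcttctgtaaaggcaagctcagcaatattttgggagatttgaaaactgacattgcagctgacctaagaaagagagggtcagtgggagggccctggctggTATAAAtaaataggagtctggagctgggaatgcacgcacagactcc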

How the data were processed

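Bulk RNA sequencing of 6 libraries, 1 for each of 2 treatments and 3 days, was analysed. Per the labels and the paper's methods, the authors used a stranded mRNA kit, trimmed reads with Trim Galore, mapped them with HISAT2 to GRCm39 (mm39), obtained gene-level counts with featureCounts and deposited these raw counts. Versions, annotation, strand setting and the treatment of multi-mapping reads are not given in the sources used here. The median-of-ratios size factors of DESeq2 (1.42.0) scaled the counts. Log2 ratios used a pseudocount of 1, and a fold change on this scale understates the change of low genes. Counting intervals are 95% exact binomial (Clopper-Pearson) intervals of the ratio of 2 counts, and with the limit of 3 counts for a count of 0 they cover counting error only. With few counts these are wide.

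The treatment term was tested with edgeR (4.0.16, quasi-likelihood, TMM, filterByExpr, Benjamini-Hochberg over all genes tested, day as a block) in R 4.3.3. It was also run on simulated counts with the same change on every day, which does not cover changes that differ between days. Nothing says that the libraries came from separate cultures, so p-values measure only the spread between these libraries. Standard errors of edgeR estimates were back-calculated as the absolute log2 difference divided by the square root of the F statistic of the test. GENCODE M39 gave coordinates. The members and lists were chosen with earlier results of these data known. Named are the 15 genes of highest rank, the 10 most abundant at D3, list members, the 4 largest and smallest FGF8 differences of each day (pair mean of at least 50), edgeR calls, and ranks 98 to 103. Other named genes, the roles, motifs and printed sequences were chosen after their values were seen. Alternatives were other scalings, pseudocounts, filters, folds and rankings, DESeq2, no day term and leaving out each day. The values of 2 single members are not reported here.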

Additional observations from a re-analysis of the deposited data

Results flagged for a closer look

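In 2 members FGF8 and untreated cells differed in opposite directions on different days, each by at least 2-fold and with counting intervals on 1 side of 0. Whether the days differ was not tested, since each value rests on 1 library per condition. Cldn1 was higher after FGF8 at D3 by 1.07 on the log2 scale (598 against 1261 normalized counts) and lower at D7 with a log2 difference of -1.19 (102 against 43.9), while at D0 the 2 libraries had 55.8 and 52.5. Lcn2 was higher after FGF8 at D0 by 2.48 and lower at D3 and D7, with log2 differences of -2.42 and -1.84. The D0 value of Lcn2 rests on 1 count in the untreated and 10 counts in the FGF8 library, with a counting interval from 0.31 to 8.56.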

How the results depend on the processing

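Of 95 alternatives to the counts, shares and medians above, 69 stayed within a set limit of the value reported. The limit was 1.5-fold for counts and, for shares and medians, a 95% interval that treats the genes as independent. It is wide for medians: that at D3 went from -0.31 to -0.12 with the top 200 genes. At D0 the median went from -0.32 to -0.10 with the top 50, also within the limit. The remaining 26 follow. The choice of the 100 genes kept 61 of them with a mean of at least 100, 48 with no filter on the mean, 60 with the ratios of the untreated libraries only, 45 with those of the FGF8 libraries only and 25 with the mean of the 4 ratios, and it moved less with other scalings and pseudocounts. With a 1.5-fold rule the percent of members higher after FGF8 was 14 at D0 and 19 at D3 (17 and 15.9 of all genes), and the percent lower was 45 at D3 and 48 at D7 (20.6 and 15.7 of all genes). With a 4-fold rule the percent higher was 2, 0 and 0 at D0, D3 and D7 (2, 0.362 and 0.0679 of all genes) and the percent lower 27, 11 and 19 (4.5, 2.31 and 3.09 of all genes). With a pair mean of at least 20, a filter added after seeing the data, 0% were higher at D0, against 6.75% of all genes. The median log2 difference of the top 50 genes at D7 was -0.96. Members called lower over the 3 days numbered 25 with DESeq2, 2 with the RLE method (Ctla2a and Vdr), 11 with no filter, 0 without day in the model, 35 without D0, 0 without D3 and 0 without D7, and members called higher 3 with DESeq2 and 3 without D0, where 3.42% and 3.96% of all genes were called higher. Leaving out a day leaves 1 residual degree of freedom. All-gene calls moved alike, from 182 lower to 1220 with DESeq2, 109 with the RLE method, 406 with no filter and 1661 without D0, and the cause was not tested. In single genes at D3, 0 of 156 alternatives for 39 genes turned the direction. These genes were taken because they already differed at least 2-fold. The scalings and pseudocounts moved them too little to turn a difference of that size, so this count says nothing on robustness. Scaling by total counts moved the median of all genes at D3 from 0.07 to -0.03, a shift that the members share. The day block in the model already pairs the libraries by day, and the fit without day is the unpaired one. No other pairing was possible, because each group holds 1 library and only the day links libraries. Members with 0 to 3 counts at D0 (21 untreated, 29 after FGF8) have fold changes limited by depth.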

Other observations

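The genes around the melanocortin receptors were looked up after the values of Mc2r and Mc5r had been seen. Mrap, the accessory protein that brings the corticotropin receptor to the cell surface, is not a member. It had 5.88, 2988 and 6946 normalized counts at D0, D3 and D7 in untreated cells and 5.12, 4789 and 5609 after FGF8, so it was at its highest at D7, while Mc2r was at 42.6 and 20.3 there. Mc1r had at most 2 counts in any library, and Mc3r and Mc4r had 0 counts in all 6, which for each library allows up to 3 counts.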
